A study of Mus musculus with 12 samples.

Results

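The growth arrest genes, which in the main restrain cell division, were compared between the livers of exercised and sedentary mice to ask how a single bout of running after a meal moves them. They were chosen by symbol among the genes of the deposited table, and 10 of 17432 genes carried these symbols: the cyclin-dependent kinase (CDK) inhibitors Cdkn1a and Cdkn1b, the stress-inducible genes Gadd45a, Gadd45b and Gadd45g, the antiproliferative genes Btg1 and Btg2, the cyclins Ccnd1 and Ccng2, and the transcriptional repressor Bcl6. Ccnd1 is the exception in function, since its product promotes entry into the cell cycle. Liver RNA came from 12 male wild-type C57BL/6J mice aged 8 to 10 weeks, 6 sedentary (Sedentary) and 6 that ran on a treadmill at 14 m/min for 3 hours (Exercise). All had been fed in the daytime for 3 days to synchronize food intake and were refed from 9 to 12 o'clock before food was removed, so both groups were studied in the postprandial state, and tissue was taken at the same time of day at the end of the run. Replicates are separate livers by their labels. Whole liver was sequenced, so each value is an average over hepatocytes and the other liver cells, and fewer cells of a type cannot be told apart from less RNA per cell.

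A dividing cell passes from G1 into S phase when cyclin D with CDK4 or CDK6, and then cyclin E with CDK2, phosphorylate the retinoblastoma family proteins and free E2F factors. p21 (Cdkn1a) and p27 (Cdkn1b) bind these cyclin-CDK complexes and inhibit them, the GADD45 proteins bind stress kinases, PCNA and p21, and the BTG proteins recruit the CCR4-NOT deadenylase to mRNA. Hepatocytes of the adult liver rarely divide, and several of these genes are also known targets of p53, of FOXO factors or of glucocorticoids, which respond to stress, fasting and insulin.

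Total estimated counts were 18971992 to 19324461 in the Sedentary libraries (median 19228810) and 18745379 to 19001010 in the Exercise libraries (median 18923302). Levels are given as CPM, the count scaled to the size of the library, with factors from TMM (trimmed mean of M values), or as the deposited FPKM, which divides by transcript length, where genes are compared with each other. Of 12344 genes with enough counts for a test, 42.4% changed (edgeR's quasi-likelihood test, adjusted p under 0.05), 21.1% upward and 21.3% downward, so that a change by itself was common. The split depended on scaling, with 1702 genes higher and 3714 lower by limma on FPKM and 1767 and 3735 with library size alone, against 2603 and 2626 here. Hepatocyte markers summed to 136000 to 182000 CPM in Sedentary and 170000 to 192000 CPM in Exercise livers. Markers of other cells were far lower, at 138 to 188 against 157 to 240 CPM for endothelium, 89.2 to 149 against 105 to 159 CPM for Kupffer cells and macrophages, and 171 to 224 against 157 to 232 CPM for stellate cells and fibroblasts.

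All 10 growth arrest genes passed the filter on low counts and all 10 changed after exercise, 8 upward and 2 downward. Cdkn1a, Gadd45g, Ccng2 and Gadd45b rose more than 2-fold, while Btg2, Btg1, Cdkn1b and Bcl6 rose by less. Gadd45a fell to 0.341 of its Sedentary level and Ccnd1 fell to 0.553 of it. A change of at least 2-fold was seen in 5 of the 10 genes, against 3.94% of all genes tested, with 4 upward (2.35% of all genes) and 1 downward (1.59% of all genes). In 9 of the 10 the groups did not overlap, against 22.3% of all genes. The median log2 fold change was 0.90 over the 10 genes and -0.0028 over all genes tested, and the median size of the change, without its sign, was 1.10 against 0.21. The members were chosen with earlier results of these data known, so these contrasts describe the set and test nothing. The call for Ccnd1 depended on the fit and on single livers, and is described with its values.

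**Figure D1:**
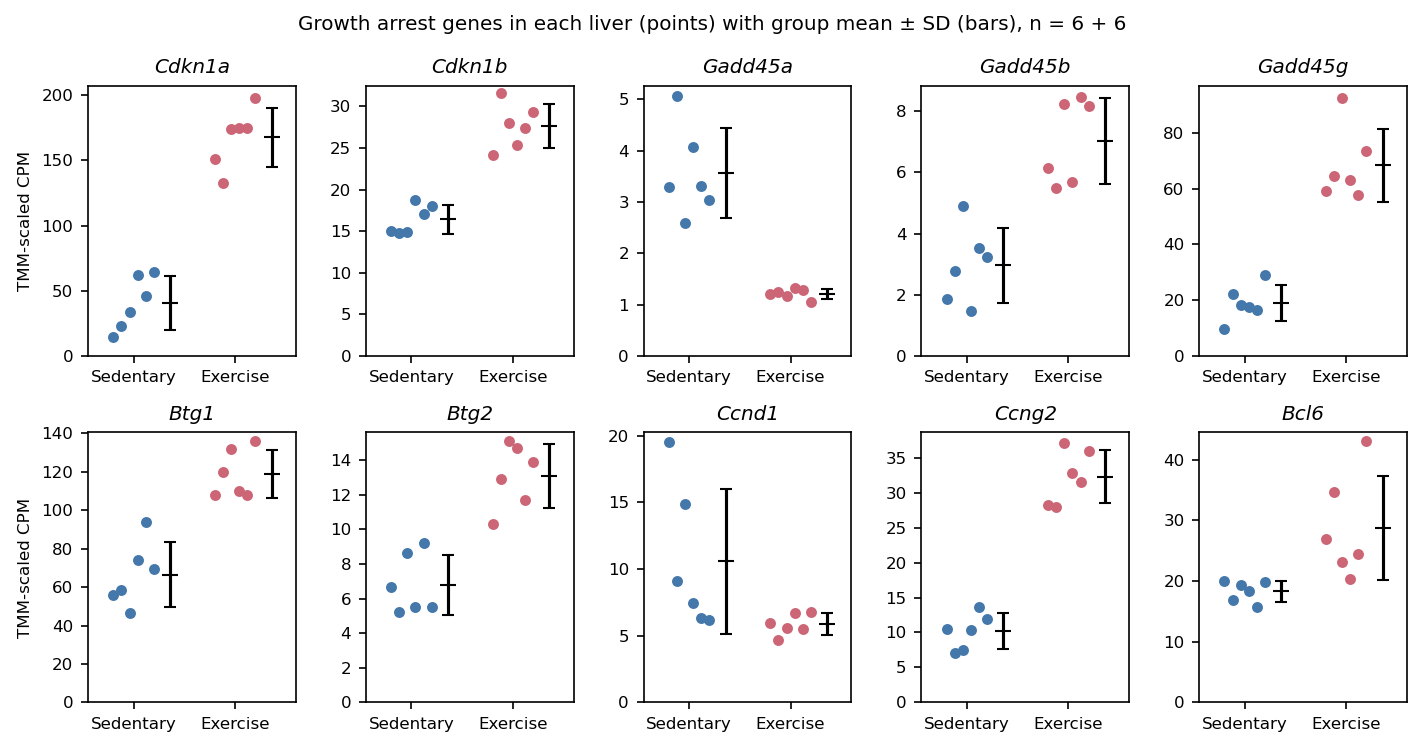
Level of each growth arrest gene in each liver (vertical axes, TMM-scaled CPM, each starting at 0), with points for the 6 Sedentary and 6 Exercise livers and bars for the group mean ± SD. The groups are apart in 9 genes, Gadd45a is lower in every Exercise liver, and Ccnd1 overlaps.

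Per transcript length, Cdkn1a had the highest mean of the 10 in both groups, with a range that overlapped that of Gadd45g in each. The Sedentary order by mean FPKM was Cdkn1a (22.4 ± 11.3, SD, n = 6), Gadd45g (19.0 ± 6.79), Btg1 (13.8 ± 3.07), Cdkn1b (7.19 ± 0.726), Ccng2 (4.28 ± 0.98), Bcl6 (4.04 ± 0.458), Gadd45a (3.15 ± 0.865), Ccnd1 (2.93 ± 1.54), Gadd45b (2.5 ± 1.01) and Btg2 (2.3 ± 0.507). Among neighbours in that order, only Btg1 and Cdkn1b, and Cdkn1b and Ccng2, had ranges that did not overlap. After exercise the order by mean FPKM was Cdkn1a (86.9 ± 11.0, SD, n = 6), Gadd45g (63.9 ± 10.3), Btg1 (23.2 ± 2.23), Ccng2 (12.7 ± 1.21), Cdkn1b (11.4 ± 1.31), Bcl6 (6.87 ± 2.48), Gadd45b (5.57 ± 1.07), Btg2 (4.17 ± 0.529), Ccnd1 (1.51 ± 0.197) and Gadd45a (0.998 ± 0.0989). The ranges now separated Gadd45g from Btg1, Btg1 from Ccng2, Btg2 from Ccnd1 and Ccnd1 from Gadd45a. Gadd45a thus stood seventh in Sedentary livers and last in Exercise livers, while Ccng2 and Cdkn1b exchanged places with overlapping ranges.

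The CDK inhibitors rose together but by different amounts. Cdkn1a encodes p21, a broad inhibitor of G1 and S phase kinases and a classical p53 target (gene ID 12575, GRCm38 chr17:29090976-29100727, plus strand). Its level was 14.7 CPM in the lowest, 39.8 in the median and 64.3 in the highest Sedentary liver, and 133, 175 and 198 CPM in Exercise livers. Every Exercise liver lay above every Sedentary liver, with a gap of 68.2 CPM. The log2 fold change was 2.05 (standard error 0.334, edgeR adjusted p = 0.000627), the largest of the 10, and its size ranked 61 among 12344 genes. Cdkn1b encodes p27, the inhibitor associated with quiescence (gene ID 12576, chr6:134920401-134925513, plus strand). Its Sedentary levels were tight, at 14.8, 16 and 18.7 CPM for the lowest, median and highest liver, and its Exercise levels were 24.2, 27.7 and 31.6 CPM. The groups did not overlap, and the log2 fold change was 0.75 (standard error 0.0789, edgeR adjusted p = 1.08e-06). In a two-sided exact permutation test over all 924 relabellings of the livers, Cdkn1a, Cdkn1b and each of the other 7 genes without overlap gave p = 0.00216, the smallest p that 6 against 6 can give. Within each liver, the log2 ratio of Cdkn1a to Cdkn1b was 1.46 higher after exercise (standard error 0.307, exact permutation p = 0.00216, adjusted over 5 pairs of members p = 0.00361). On the FPKM scale, Cdkn1a stood at 1.24 to 4.51 times Cdkn1b in Sedentary livers (median 3.13) and at 5.30 to 8.71 times in Exercise livers (median 8).

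The spread between Sedentary livers was wide for Cdkn1a, with a coefficient of variation of 50.4% against 13.6% after exercise. Sedentary replicates 1 to 6 held 14.7, 22.8, 33.4, 62.2, 46.2 and 64.3 CPM of Cdkn1a. Variation was larger between Sedentary than between Exercise livers in 9 of the 10 genes, against 59.0% of all genes, and Bcl6 was the exception (9.65% in Sedentary against 29.7% in Exercise livers). Over all genes the median coefficient of variation was 11.6% in Sedentary and 10.2% in Exercise livers.

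The stretch before the upstream start of Cdkn1a is shown because the distal p53 response element known for this gene lies there. Capitals mark the 2 matches to the p53 half-site consensus, which begin 73 and 51 bases before the RefSeq start. They were found as single half-sites and are separated by other bases. Which bases form the known element was not tested, so the capitals do not outline it. The window is GRCm38.p6 chr17:29090729-29090975, plus strand, from RefSeq, with the 3 bases nearest the start left off.
Cdkn1a: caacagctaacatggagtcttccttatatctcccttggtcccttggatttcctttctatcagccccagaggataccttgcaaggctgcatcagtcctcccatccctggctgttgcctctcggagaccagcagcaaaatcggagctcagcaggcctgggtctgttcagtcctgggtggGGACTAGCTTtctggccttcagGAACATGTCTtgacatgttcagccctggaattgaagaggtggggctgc
Across 32851 RefSeq windows of 250 bases upstream of a start, 7.13% held a p53 half-site on either strand, and the windows of Cdkn1a and Gadd45a were the only ones among 11 windows of 9 members to do so. No window of the members held the glucocorticoid response element, a palindrome of hexamers with a spacer, which 0.00913% of all windows held. A match is a string of letters and was not tested for binding.

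The other CDK inhibitors were scarce in this tissue. Only 3 of 6 passed the filter and 1 of them changed (33.3%, against 42.4% of all genes), Cdkn2d, an inhibitor of CDK4 and CDK6. Its log2 fold change was 0.59 (edgeR adjusted p = 0.0113), with levels of 1.34 ± 0.296 CPM in Sedentary and 2.01 ± 0.324 CPM in Exercise livers (SD, n = 6). The list's count was 2 with Sedentary replicate 4, 5 or 6 left out. Cdkn2a, the senescence-associated inhibitor locus, had a median under 0.05 CPM.

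The 3 GADD45 genes moved in opposite directions. These small acidic proteins share a fold and bind the kinase MAP3K4, PCNA and p21, and they are induced by different stresses. Gadd45g and Gadd45b rose and Gadd45a fell. Gadd45g (gene ID 23882, chr13:51846678-51848468, plus strand) stood at 9.5, 18 and 29.0 CPM in the lowest, median and highest Sedentary liver and at 57.9, 63.7 and 92.7 CPM in Exercise livers. The gap between the groups was 28.9 CPM, and the log2 fold change was 1.86 (standard error 0.226, edgeR adjusted p = 7.2e-05). Gadd45b (gene ID 17873, chr10:80930073-80932204, plus strand) was a low gene, at 1.46, 3.0 and 4.89 CPM in Sedentary and 5.48, 7.15 and 8.47 CPM in Exercise livers, counts of 29 to 159 per library. Its groups also stayed apart, with a log2 fold change of 1.25 (standard error 0.235, edgeR adjusted p = 0.000726). Gadd45a (gene ID 13197, chr6:67035096-67037457, minus strand) is the classical DNA damage-inducible member. It was at 2.6, 3.31 and 5.06 CPM in Sedentary livers and at 1.05, 1.23 and 1.32 CPM in Exercise livers, on 19 to 106 counts per library. Every Exercise liver was below every Sedentary liver, and the log2 fold change was -1.55 (standard error 0.169, edgeR adjusted p = 1.67e-06). The annotation places E230016M11Rik, which is not in the count table, over Gadd45a on the opposite strand, as it does Gm37419 over Bcl6 and an unnamed transcript over Cdkn1a, and whether reads were counted by strand is not given in the sources used here.

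The composition of the family therefore differed between groups. Of the summed FPKM of the 3 genes, Gadd45g made up 68.0% to 84.3% in Sedentary livers (median 75.3%) and 87.5% to 92.1% in Exercise livers (median 90.9%). Gadd45a made up 7.72% to 20.8% (median 14.2%) in Sedentary and 1.01% to 1.70% (median 1.6%) in Exercise livers, while the share of Gadd45b overlapped, at 5.50% to 16.8% against 6.63% to 10.8%. In Sedentary livers Gadd45b and Gadd45a were of like abundance, with an FPKM ratio from 0.346 to 1.81, and in Exercise livers Gadd45b was 4.16 to 7.55 times Gadd45a. The within-liver log2 ratio of Gadd45b to Gadd45a shifted by 2.41 (standard error 0.329) and that of Gadd45g to Gadd45a by 3.11 (standard error 0.265), each with an exact permutation p of 0.00216 and an adjusted p of 0.00361 over the 5 pairs. The within-liver log2 ratio of Gadd45g to Gadd45b shifted by 0.70 (standard error 0.262, exact permutation p = 0.0303, adjusted p = 0.0379). These ratios add a constant to CPM before the log, which damps the rise of a low gene such as Gadd45b and widens this shift. By edgeR the log2 fold changes were 1.86 for Gadd45g and 1.25 for Gadd45b. The shift was not past the threshold on the FPKM scale (0.61, adjusted p = 0.0812). It was also not past it with any of Sedentary replicates 1, 3 and 5 or Exercise replicates 1, 2, 3, 4 and 6 left out (0.57 to 0.73, adjusted p from 0.0595 to 0.0758). A larger rise of Gadd45g than of Gadd45b was therefore not established.

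**Figure D2:**
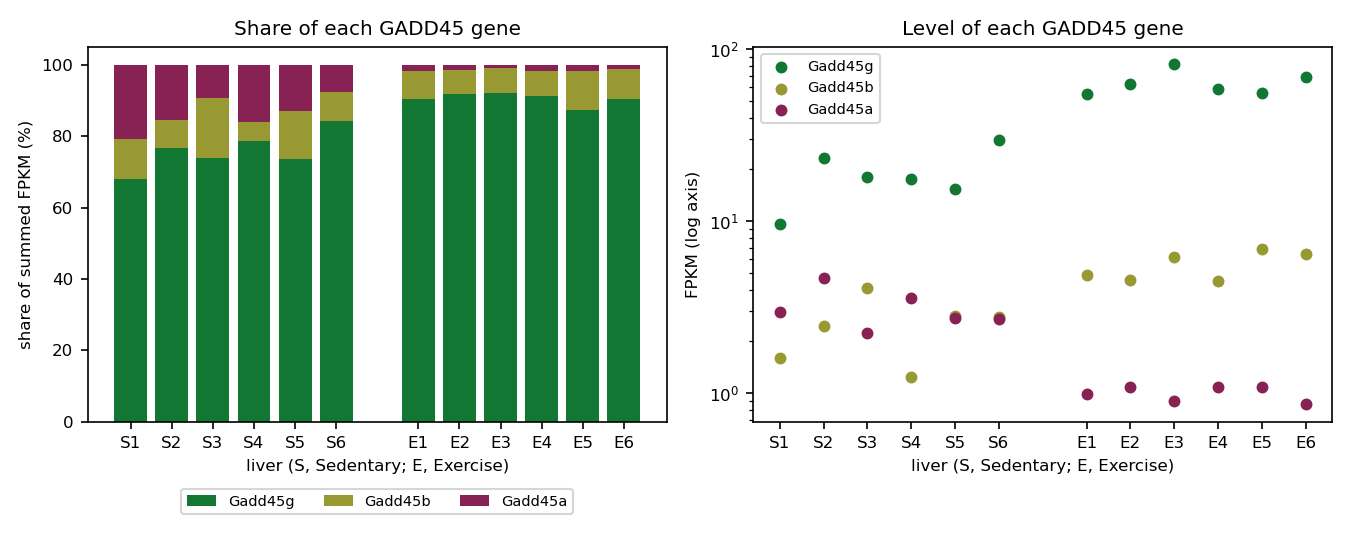
Left, share of each GADD45 gene in the family's summed FPKM (vertical axis, percent) in each of the 12 livers. Right, FPKM of the 3 genes in the same livers (logarithmic vertical axis). Gadd45g makes up more than 87% in each Exercise liver, and Gadd45a, which was mixed with Gadd45b in Sedentary livers, lies below it in each Exercise liver.

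The promoters of the 3 genes are printed to show which short motifs each holds. A link between these motifs and the changes in level was not tested. Capitals mark the E-box by the letters CACGTG. They also mark each CCAAT box, which is named for its letters. The remaining capitals, read as TATAAA, are a TATA box, and all were searched on both strands and do not overlap. The windows are from RefSeq on GRCm38.p6, at chr13:51846425-51846674 (plus strand) for Gadd45g, chr10:80929841-80930072 (plus strand, 18 bases nearest the start left off) for Gadd45b and chr6:67037458-67037657 (minus strand, 50 bases nearest the start left off) for Gadd45a.
Gadd45g: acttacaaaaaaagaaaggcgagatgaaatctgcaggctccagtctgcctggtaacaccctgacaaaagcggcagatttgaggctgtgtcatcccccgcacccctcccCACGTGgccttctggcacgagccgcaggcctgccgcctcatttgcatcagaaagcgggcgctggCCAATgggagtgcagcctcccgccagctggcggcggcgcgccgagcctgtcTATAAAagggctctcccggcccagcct
Gadd45b: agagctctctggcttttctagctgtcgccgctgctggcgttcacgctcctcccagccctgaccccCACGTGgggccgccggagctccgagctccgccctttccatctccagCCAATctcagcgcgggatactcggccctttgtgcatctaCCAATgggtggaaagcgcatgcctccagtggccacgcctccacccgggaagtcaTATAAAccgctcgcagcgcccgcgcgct
Gadd45a: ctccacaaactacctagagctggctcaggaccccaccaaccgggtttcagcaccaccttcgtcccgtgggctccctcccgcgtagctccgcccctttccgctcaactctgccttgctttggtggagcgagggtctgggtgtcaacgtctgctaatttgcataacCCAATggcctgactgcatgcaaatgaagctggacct
Gadd45g held an E-box 142, a CCAAT box 78 and a TATA box 27 bases before the start, and Gadd45b held an E-box 185, CCAAT boxes 139 and 100 and a TATA box 46 bases before it. The window of Gadd45a held a CCAAT box 86 bases before the start and neither of the others. Over all windows, 6.02% held the E-box, 12.4% the TATA box, 33.8% a CCAAT box and 0.517% both E-box and TATA box, a pair that Gadd45b and Gadd45g alone showed among the members. The pair is the one that both windows held, so its share tests nothing. Of the other members, Btg1 held a TATA box and a window of Bcl6 an E-box.

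Genes listed beside GADD45 were mixed. The 15 tested were kinases of the p38 and JNK branches, PCNA, the DNA glycosylase gene Tdg and Gadd45gip1, with Ppp1r15a and Ppp1r15b. Those last encode eIF2alpha phosphatase subunits, which were listed with the partners and are not GADD45 partners themselves. Of the 15, 8 changed (53.3%, against 42.4% of all genes), 3 upward and 5 downward, with a median log2 fold change of 0.07. Map2k6, an activator of p38, rose by 1.02 on the log2 scale (12.4 ± 3.78 to 25.0 ± 3.25 CPM, SD, n = 6, adjusted p = 0.000489). Ppp1r15a, also known as GADD34, rose by 0.71 (adjusted p = 1.46e-05), and Map3k4, the kinase that GADD45 proteins bind directly, fell by 0.46 on the log2 scale (19.0 ± 1.77 to 13.8 ± 1.13 CPM, adjusted p = 0.000109).

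Btg1 and Btg2 rose 1.79-fold and 1.93-fold. Both encode adaptors that link CCR4-NOT to mRNA and hold cells in G1. Btg1 (gene ID 12226, chr10:96617006-96622809, plus strand) was at 46.7, 64.1 and 94.1 CPM in the lowest, median and highest Sedentary liver and at 108, 115 and 136 CPM in Exercise livers. Btg2 (gene ID 12227, chr1:134075170-134079120, minus strand), a p53 target, was at 5.25, 6.08 and 9.19 CPM in Sedentary and at 10.3, 13.4 and 15.1 CPM in Exercise livers. Neither gene's groups overlapped. The log2 fold change was 0.84 for Btg1 (standard error 0.145, edgeR adjusted p = 0.000493) and 0.95 for Btg2 (standard error 0.143, edgeR adjusted p = 7.45e-05). The within-liver log2 ratio of Btg2 to Btg1 shifted by 0.05 with a standard error of 0.201 (exact permutation p = 0.814, adjusted p = 0.814), and its sign turned with Sedentary replicate 4, Sedentary replicate 6 or Exercise replicate 4 left out (-0.036, -0.016 and -0.002), so a difference in response between the pair was not detectable. Per length, Btg2 was 0.121 to 0.303 times Btg1 in Sedentary and 0.156 to 0.218 times Btg1 in Exercise livers.

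The other members of the BTG/TOB family in the table moved the same way, 3 of 3 tested upward, against 21.1% of all genes, with a median of 0.55. Tob1 rose by 0.74 on the log2 scale (113 ± 20.5 to 189 ± 15.9 CPM, SD, n = 6, edgeR adjusted p = 5.63e-05), Tob2 rose by 0.55 (adjusted p = 0.00462) and Btg3 rose by 0.39 (adjusted p = 0.0115). Genes of the CCR4-NOT complex itself were divided, with 6 of 12 changed (50%, against 42.4% of all genes), 3 upward and 3 downward, and a median of 0.04. Cnot4, Cnot6l and Cnot3 rose the most, by 0.36, 0.30 and 0.24 on the log2 scale (adjusted p = 0.00134, 0.00166 and 0.0078).

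The BTG promoters are shown because Btg2 holds a full cyclic AMP response element, while Btg1 holds only its short form, a common string that a window of Bcl6 holds as well. Capitals mark the full element TGACGTCA in Btg2, which contains the shorter TGACG on each strand, and TGACG on the reverse strand (read here as CGTCA) in Btg1. The RefSeq windows are chr10:96616751-96617000 (plus strand) for Btg1 and chr1:134079156-134079405 (minus strand) for Btg2 on GRCm38.p6.
Btg1: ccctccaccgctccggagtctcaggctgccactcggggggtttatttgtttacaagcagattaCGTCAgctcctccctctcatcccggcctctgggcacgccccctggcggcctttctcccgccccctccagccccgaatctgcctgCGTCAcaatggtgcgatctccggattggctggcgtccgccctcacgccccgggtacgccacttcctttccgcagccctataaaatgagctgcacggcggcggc
Btg2: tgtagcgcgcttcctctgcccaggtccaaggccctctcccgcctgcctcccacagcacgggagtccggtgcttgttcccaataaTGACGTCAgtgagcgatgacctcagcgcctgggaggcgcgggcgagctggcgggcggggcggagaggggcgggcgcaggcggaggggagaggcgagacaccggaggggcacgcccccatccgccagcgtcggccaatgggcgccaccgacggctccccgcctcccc
The element of Btg2 begins 166 bases before the start, and the 2 short matches of Btg1 begin 187 and 103 bases before it. The full element was found in 1.55% of all windows and the short form in 17.8%. The Btg1 window also held the FOXO site GTAAACA on the reverse strand 204 bases before the start, which 3.17% of all windows held.

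The cyclins moved apart. Cyclin G2, encoded by Ccng2 (gene ID 12452, chr5:93267257-93276231, plus strand), is an atypical cyclin that opposes division and is a known FOXO target. It was at 7.06, 10.5 and 13.7 CPM in the lowest, median and highest Sedentary liver and at 28.0, 32.2 and 37.1 CPM in Exercise livers. The lowest Exercise liver was at more than 2-fold the highest Sedentary liver, and the log2 fold change was 1.67 (standard error 0.143, edgeR adjusted p = 1.03e-06). Cyclin D1, encoded by Ccnd1 (gene ID 12443, chr7:144929931-144939925, minus strand), drives G1 progression. It was at 6.21, 8.29 and 19.5 CPM in Sedentary and at 4.65, 5.76 and 6.79 CPM in Exercise livers. Of the 6 Exercise livers 4 were below all Sedentary livers, and the groups overlapped.

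The log2 fold change of Ccnd1 was -0.86 (standard error 0.301, edgeR adjusted p = 0.0396, exact permutation p = 0.0173). It was not past the threshold with the replicate number as a block (-0.75, adjusted p = 0.0764) or with either of Sedentary replicates 2 and 3 or any of the 6 Exercise livers left out (adjusted p from 0.0551 to 0.0822). Without Sedentary replicate 1, the liver with the most Ccnd1, it was -0.59 (adjusted p = 0.0486). Sedentary replicates 1 to 6 held 19.5, 9.12, 14.9, 7.46, 6.31 and 6.21 CPM of Ccnd1, so the 3 livers with the least Cdkn1a were the 3 with the most Ccnd1, an order noticed after the values were seen and not tested. The FPKM ratio of Cdkn1a to Ccnd1 ran from 1.52 to 20.8 in Sedentary livers (median 9.89) and from 51.1 to 64.1 in Exercise livers (median 58.1). Counts of Ccnd1 were fractional (88.62 to 391.2 per library), and LTO1, which overlaps it on the opposite strand, was at 7.38 ± 1.13 CPM in Sedentary and 6.72 ± 1.08 CPM in Exercise livers (SD, n = 6, log2 fold change -0.13, adjusted p = 0.388).

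Ccng2 is set beside its nearest relative, and a difference in response between them was not tested. Ccng1, the paralog and a p53 target, had 20.6 ± 1.47 CPM in Sedentary and 22.8 ± 2.37 CPM in Exercise livers (SD, n = 6), a difference of 0.15 on the log2 scale (adjusted p = 0.112). Among 13 tested atypical cyclins other than Ccng2, 8 changed (61.5%, against 42.4% of all genes), 6 upward and 2 downward (median 0.16). Ccndbp1, a cyclin D-binding protein gene listed with them, rose by 0.33 (adjusted p = 0.00527). Ccnt2, a partner of the elongation kinase CDK9, rose by 0.73 on the log2 scale (adjusted p = 5.94e-06), Ccnl2, a splicing-associated cyclin, rose by 0.51 (adjusted p = 0.000279), and Ccnf, the ubiquitin ligase subunit cyclin F, fell by 0.65 on the log2 scale (adjusted p = 9.65e-07).

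The rest of the G1 machinery went both ways. The list held G1 cyclins, CDKs, pocket proteins and E2F factors, with Cdc25a, Skp2, Cks1b and Cks2 beside them. Of 21 tested, 12 changed (57.1%, against 42.4% of all genes), 6 upward and 6 downward, with a median of -0.03. Cdc25a was among those that rose (0.38, edgeR adjusted p = 0.0192). E2f2, an activating E2F, fell by 2.07 on the log2 scale (1.94 ± 0.337 to 0.457 ± 0.123 CPM, SD, n = 6, adjusted p = 6.22e-07). Ccne2, cyclin E2, rose by 1.26 (1.18 ± 0.395 to 2.82 ± 0.465 CPM, adjusted p = 8.26e-05), and E2f1 rose by 0.54 (adjusted p = 0.0249). Genes of S phase, G2 and mitosis were few and low, with 15 of 26 passing the filter and a summed level of 47.1 to 56.9 CPM in Sedentary and 48.6 to 55.7 CPM in Exercise livers. Of these, 4 changed (26.7%), 3 upward and 1 downward, and 2 did so with Exercise replicate 1 or 3 left out or with the replicate number as a block. Birc5, which encodes survivin, rose by 1.17 (1.01 ± 0.428 to 2.28 ± 0.613 CPM, adjusted p = 0.00173), Mcm4, a replication helicase subunit, rose by 0.39 (adjusted p = 0.0417), and Tyms, thymidylate synthase, fell by 0.27 on the log2 scale (adjusted p = 0.0159). Ccnb1 and Bub1, which are needed for mitosis, had medians under 0.05 CPM.

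Bcl6 had the smallest fold change of the 8 genes that rose. It encodes a zinc finger repressor that acts in germinal centre B cells and, in liver, on lipid and sex-biased genes downstream of growth hormone and STAT5 (gene ID 12053, chr16:23965052-23988852, minus strand). Its level was 15.7, 18.8 and 20 CPM in the lowest, median and highest Sedentary liver and 20.3, 25.7 and 43.1 CPM in Exercise livers. The groups were apart by only 0.228 CPM, with Exercise replicate 4 lowest and Exercise replicate 6 highest. The log2 fold change was 0.65 (standard error 0.166, edgeR adjusted p = 0.00724), and 0.51 without Exercise replicate 6. Markers of T, NK and B cells, which also express Bcl6, summed to 5.44 to 9.8 CPM in Sedentary and 5.8 to 8.92 CPM in Exercise livers. Only 3 of these 10 markers passed the filter on low counts. Of the 3, 0 changed by edgeR (against 42.4% of all genes), DESeq2 or limma, with 0 at an unadjusted p under 0.05. With markers so few and low, a change in these cells could not be judged.

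Bcl6 also differed in a measure that the counts alone do not show. FPKM divided by the estimated count, within a library and relative to the library's median, depends on the transcript length that the quantification assigned to the gene, and it was chosen as a measure after the data had been seen. On a log2 scale relative to the median of the 12 livers, this ratio for Bcl6 was -0.040 to -0.032 in Sedentary livers and 0.139, 0.171, 0.127, 0.032, 0.189 and 0.275 in Exercise replicates 1 to 6. The groups did not overlap and differed by 0.19. Among 9011 genes with enough FPKM to form the ratio, 0.388% shifted as far, and 0.444% shifted by at least 0.1 without overlap between the groups. The other 8 members with a ratio shifted by 0.002 to 0.004 with overlapping groups, and Gadd45a was too low to form one. On the FPKM scale the log2 fold change of Bcl6 was 0.69, against 0.65 from the counts. The median over all genes was -0.0932 on the FPKM scale and -0.0028 from the counts, so the scales are not alike. GENCODE lists a coding transcript of 3525 bases with 10 exons and a retained-intron transcript of 3933 bases with 3 exons for Bcl6, and which transcripts were counted is not given in the sources used here.

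**Figure D3:**
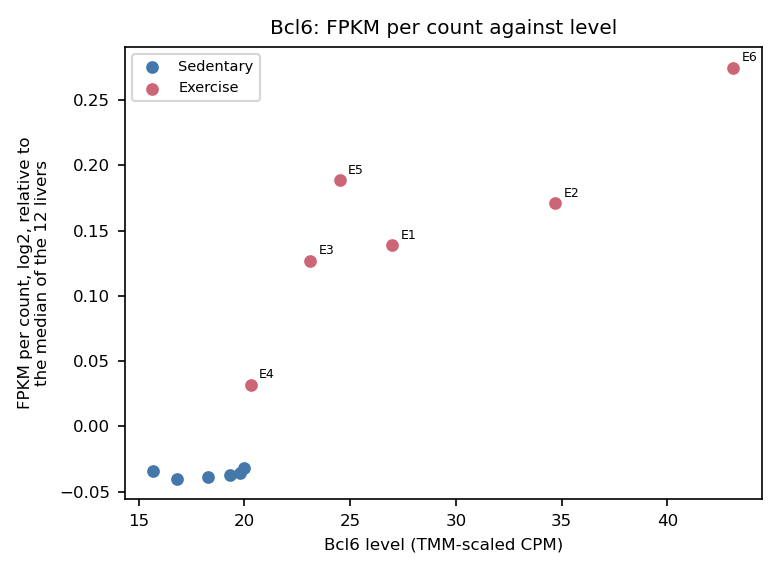
FPKM per estimated count of Bcl6 (vertical axis, log2, relative to the median of the 12 livers) against its level (horizontal axis, TMM-scaled CPM), 1 point for each liver with the Exercise livers numbered. The 6 Sedentary livers lie together between -0.040 and -0.032, and the 6 Exercise livers lie above them from 0.032 (E4) to 0.275 (E6).

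RefSeq gives Bcl6 a pair of start sites, and the window before the internal one is shown because it held several STAT-type sites. Capitals mark matches to the GAS site TTCNNNGAA, which reads the same way on both strands, beginning 168, 122 and 88 bases before the start. The window is chr16:23981284-23981533, minus strand, on GRCm38.p6, and lies within the annotated gene.
Bcl6: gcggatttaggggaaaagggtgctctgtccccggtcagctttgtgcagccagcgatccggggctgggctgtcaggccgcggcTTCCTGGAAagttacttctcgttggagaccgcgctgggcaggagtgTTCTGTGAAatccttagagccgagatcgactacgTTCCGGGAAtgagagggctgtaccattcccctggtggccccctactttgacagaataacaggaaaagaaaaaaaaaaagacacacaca
A GAS site was found in 7.02% of all windows, and 3 or more in 0.0274% (9 windows). The limit of 3 is the number that this window holds, so the share is a description and tests nothing. The window before the outer start of Bcl6 held 1 GAS site and an E-box. The counts are per gene, so the level at either start was not measured.

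STAT5 and corepressor genes were described beside Bcl6 for the same pathway. Of 8 tested genes of growth hormone and STAT5 signaling, 4 changed (50%, against 42.4% of all genes), 1 upward and 3 downward. Cish, a STAT5-induced feedback inhibitor, fell by 1.75 on the log2 scale (19.4 ± 5.31 to 5.77 ± 2.52 CPM, SD, n = 6, adjusted p = 0.000789), Stat5a fell by 0.65 on the log2 scale (adjusted p = 2.58e-05), and Stat5b rose by 0.23 (adjusted p = 0.043). Of 12 genes listed as corepressors of BCL6, 7 changed (58.3%, against 42.4% of all genes), 3 upward and 4 downward. The list held Bcl6b, a paralog and not a corepressor, which did not pass the test (edgeR adjusted p = 0.251). Bcorl1 rose by 0.72, Sin3a rose by 0.51 and Mta3 had a log2 fold change of -0.71 (edgeR adjusted p = 1.09e-05, 4.75e-06 and 3.52e-06).

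Lists of p53 and FOXO targets, to which several of the 10 genes belong, were compared without them. Of 23 tested p53 targets, 12 changed (52.2%, against 42.4% of all genes), 9 upward and 3 downward, with a median log2 fold change of 0.15. Trp53, which encodes p53 and was listed with them, fell by 0.39 on the log2 scale (adjusted p = 0.00306). Trp53inp1 rose by 2.17 on the log2 scale (29.2 ± 7.06 to 132 ± 25.9 CPM, SD, n = 6, adjusted p = 2.08e-06), Sesn2 rose by 1.56 (adjusted p = 3.67e-06) and Plk3 rose by 1.46 (adjusted p = 2.79e-06). The other 11 targets did not pass the test, among them Mdm2, Bax, Bbc3, Fas and Gdf15. Of 17 tested FOXO targets, 12 changed (70.6%), all upward, with a median of 0.52, and 5 did not pass the test. The list was led by Igfbp1 (log2 fold change 2.76, adjusted p = 3.12e-05), Pck1 (1.93, adjusted p = 0.000531) and Irs2 (1.61, adjusted p = 9.06e-05). The FOXO genes Foxo1, Foxo3 and Foxo4, which were listed with them, rose by 1.05, 1.11 and 0.49 (adjusted p = 1.4e-05, 2.43e-08 and 0.000128). The lists share Ccng1, Rbl2 and Sesn1 with others and were written from general knowledge, with earlier results of these data known.

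**Figure D4:**
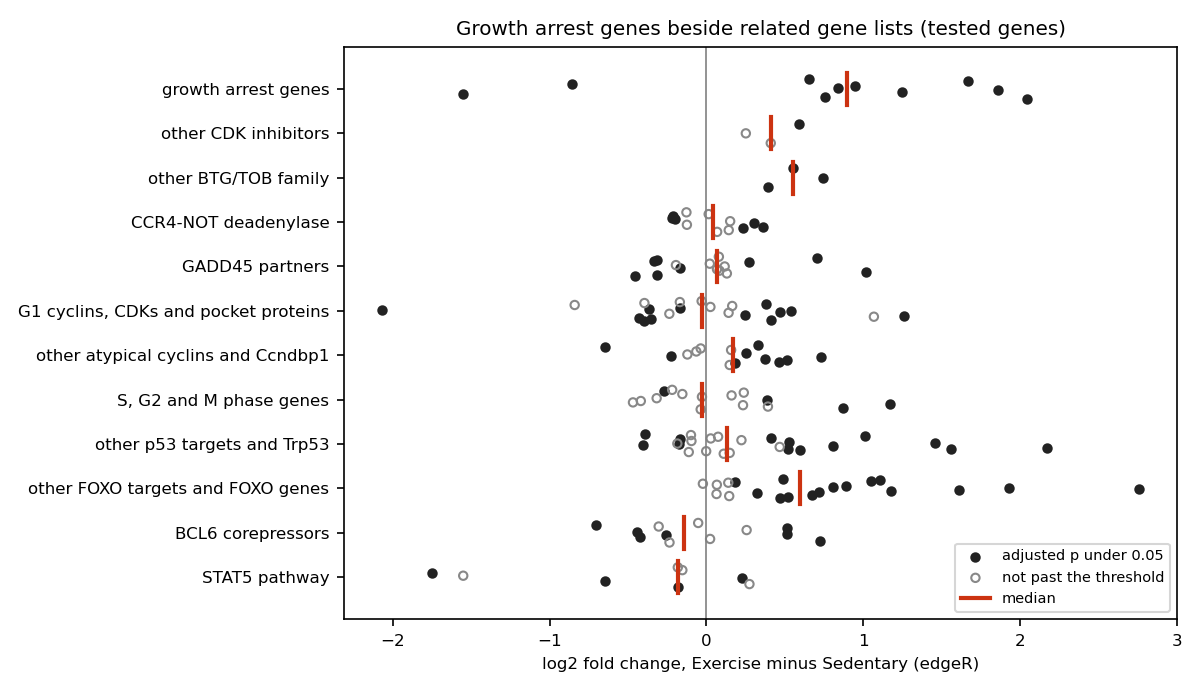
Log2 fold change, Exercise minus Sedentary, of each tested gene (points, filled where the adjusted p was under 0.05) in the growth arrest genes and 11 related lists, with red lines for each list's median. The growth arrest genes have a median of 0.90 and no open point, the FOXO targets with the FOXO genes 0.60, and the G1 and the S, G2 and M phase lists lie at -0.03.

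Some markers of liver cell types changed. The share was 50% for endothelial, 25% for stellate and 40% for hepatocyte markers, against 42.4% of all genes tested. Among endothelial markers 3 of 8 rose and 1 fell, led by Lyve1 (log2 fold change 1.18, adjusted p = 0.00245), Oit3 (0.55, adjusted p = 0.0287) and Pecam1 (0.49, adjusted p = 0.000675). Lrat and Des of the stellate cell markers fell by 0.59 and 0.41 on the log2 scale (adjusted p = 0.0316 and 0.0206). Of 9 Kupffer cell, 5 cholangiocyte and 2 neutrophil markers tested, 0 changed by edgeR, DESeq2 or limma, with 0 at an unadjusted p under 0.05 by edgeR and 1 each among the cholangiocyte (Krt19) and neutrophil (Ly6g) markers by limma. Cholangiocyte markers summed to 31.4 to 41.7 against 34.2 to 41.6 CPM and neutrophil markers to 2.57 to 3.53 against 1.91 to 4.11 CPM in Sedentary and Exercise livers, and the neutrophil marker Retnlg had a median under 0.05 CPM. Of 10 hepatocyte markers 4 rose, led by Tat (1.83, adjusted p = 1.03e-09), Hnf4a (0.59, adjusted p = 4.97e-06) and Ass1 (0.35, adjusted p = 0.00716). Their part in the changes of the growth arrest genes was not tested.

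The genes whose levels followed each member most closely over the 12 livers are given as a description, since a shared difference between the groups makes up much of each correlation. By Pearson's r of log2 levels, Cdkn1a was followed by Pik3c3 (0.983), Sdsl (0.980) and Cemip2 (0.978), and Cdkn1b by Sorbs3 (0.994), Gin1 (0.990) and Cpeb2 (0.986). Gadd45g was followed by Rsrp1 (0.971), Rasgrp2 (0.967) and Zfyve27 (0.959), Gadd45b by Tob2 (0.960), Zbtb21 (0.943) and Nck1 (0.943), and Gadd45a by Hnrnpd (0.985) and Slc35d2 (0.969). Btg1 was followed by Sult1d1 (0.980), Arl6ip6 (0.979) and N4bp2l1 (0.976), and Btg2 by Ep300 (0.975), Erf (0.973) and Myo1e (0.962). Ccng2 was followed by the autophagy kinase gene Ulk1 (0.994), Ubn2 (0.993) and Ei24 (0.992), and Bcl6 by Rab27a (0.917), Ppp1r13l (0.904) and Rgmb (0.902). Ccnd1 was followed by Irgm1 (0.932), Gbp4 (0.905) and Igtp (0.899), which themselves had log2 fold changes of -0.39, -0.59 and -0.60.

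The 10 genes kept the direction of their change in all settings tried. With each liver left out in turn, Cdkn1a ranged from 1.87 to 2.23 on the log2 scale, Gadd45g from 1.72 to 2.02, Ccng2 from 1.58 to 1.77, Gadd45b from 1.11 to 1.45 and Gadd45a from -1.63 to -1.43.

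**Figure D5:**
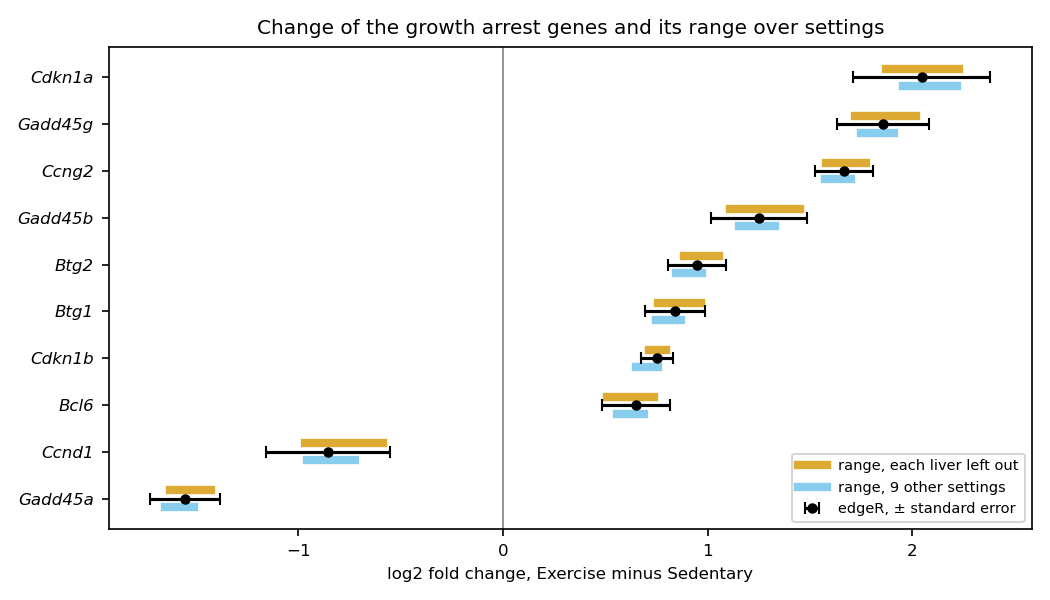
Log2 fold change, Exercise minus Sedentary, of each growth arrest gene (points, edgeR estimate ± standard error), with the range over 12 fits that leave out 1 liver each (upper bars) and over 9 other settings (lower bars). No bar crosses 0, and Ccnd1 has a wide bar, from -0.97 to -0.59, for the fits that leave out a liver.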

How the data were processed

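RNA-Seq libraries of 12 livers (6 Sedentary, 6 Exercise) were made from 1 ug of total RNA each. The authors deposited estimated counts, which are not scaled between libraries and of which 31.3% are not whole, and FPKM values, which the authors scaled for transcript length and depth. The submitters' processing notes name Bowtie2 2.3.4.3, RSEM 1.3.1 and mm10 without their roles, and the annotation and strand setting are not given in the sources used here.

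Rounded counts were scaled by TMM, filtered with filterByExpr (10 as its minimum) and fitted by the robust quasi-likelihood method of edgeR 4.0.16 (R 4.3.3), and p-values were adjusted by Benjamini-Hochberg over 12344 genes (threshold 0.05). The standard error is the size of the log2 fold change divided by the square root of F. Single genes and ratios of members were also tested by exact permutation of mean log2(CPM + 0.5). Gene lists are described by counts and medians only. Levels per length use FPKM, and FPKM per count was compared where FPKM was at least 1. Named genes are the 10 members, the 3 changed genes of each list with the largest change and a mean of at least 1 CPM, the 3 genes most correlated with each member, and overlapping genes, of which some are not reported here. The members and lists were chosen with earlier results of these data known. Positions are from GENCODE M21 (GRCm38) and promoters from RefSeq (GRCm38.p6), where 9 members matched. No 2 of 66 library pairs were identical, and within groups the chi-square per gene between livers was 7.95 to 45.2, above counting noise. The biological coefficient of variation was 11.3%, and counting error limits precision for genes with few counts such as Gadd45a. The labels give no batch. Alternatives were other filters and scalings, DESeq2 1.42.0, limma 3.58.1 (voom, and log2(FPKM + 0.1)), a replicate block and leaving out each liver. The fit was tested on simulated data. Python 3.11.15 and pandas 2.3.3 were used for the rest.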

Additional observations from a re-analysis of the deposited data

How the results depend on the processing

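Over 9 other settings and 12 fits leaving out 1 liver, the 8 genes that rose and Gadd45a kept direction and threshold. Ccnd1 kept its direction but was not past the threshold with no filter beyond 1 count (-0.856, adjusted p = 0.0627), limma-voom (-0.725, adjusted p = 0.0823) or the replicate block (-0.75, adjusted p = 0.0764), so that 1 member rather than 2 fell in each, and leaving out livers gave -0.97 to -0.588 and 1 to 2 members lower. The cause was not tested. Leaving out livers gave 1 to 2 changed genes among the other CDK inhibitors (2 with limma-voom) and 2 to 6 among S, G2 and M phase genes (2 with at least 10 counts in every library, 2 with the replicate block). The difference of Gadd45g and Gadd45b was 0.613 on FPKM and 0.566 to 0.849 with livers left out, and that of Btg2 and Btg1 was -0.036 to 0.219, with -0.036, -0.016 and -0.002 without Sedentary replicate 4, Sedentary replicate 6 and Exercise replicate 4.

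Scaling moved the split of all genes. Against 2603 higher and 2626 lower, limma on log2(FPKM + 0.1) gave 1702 and 3714 and library size alone gave 1767 and 3735, with a median log2 fold change of all genes of -0.0932 and -0.0985. No member changed direction under either. The replicate numbers were not shown to pair the livers: deviations of same-numbered livers correlated at 0.123, 0.168, -0.101, -0.11, -0.0451 and 0.0382 for numbers 1 to 6, and only numbers 1 and 2 correlated best with their own number. The replicate block gave 4956 changed genes (2490 higher, 2466 lower) and 9 changed members, and besides Ccnd1 it changed no member's call.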
